A study of Mus musculus with 16 samples.

Results

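Endothelial and angiogenic genes were examined in skeletal muscle of mice on a high-fat diet (HFD). The members were 10 genes chosen by name: Vegfa, Vegfb, Angpt1, Angpt2, Kdr, Flt1, Tek, Pecam1, Cdh5, and Nos3. They were 10 of the 23235 gene names in the mRNA table and held 44 of its 82388 transcripts. All 10 members passed the filter on low counts, as did 15364 genes in all, so no member was lost. RNA from 16 male C57BL/6J mice was sequenced in 1 library per mouse, with 4 mice in each group. The mice were bought at 6 weeks of age. The control group received a normal diet, and the HFD group received a diet of 60% fat for 8 weeks. The HFD + RSV group received the same fat diet and then resveratrol (RSV), a plant polyphenol, for 6 weeks. The HFD + metformin group received the same diet and then metformin, a glucose-lowering drug, for 6 weeks. Some mice of the study were injected with insulin shortly before the muscle was taken, and the sources do not say whether the sequenced mice were among them. The muscle that was sampled is not named. The total count per mouse in the mRNA table ranged from 17625909 to 29761026.

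Endothelial cells line the capillaries that run along every muscle fibre. Vascular endothelial growth factor A (VEGF-A, from Vegfa) is made by muscle fibres and other cells and acts on the endothelium through its receptor VEGFR2 (Kdr), while VEGFR1 (Flt1) binds it tightly and can hold it away from VEGFR2. VEGF-B (Vegfb) binds VEGFR1 only. Angiopoietin 1 (Angpt1) activates the endothelial receptor TIE2 (Tek) and stabilizes vessels, and angiopoietin 2 (Angpt2) mostly opposes it. PECAM-1 (Pecam1) and VE-cadherin (Cdh5) join endothelial cells to each other, and endothelial nitric oxide synthase (Nos3) makes the nitric oxide that widens vessels. In a whole piece of muscle, fewer endothelial cells and less RNA per endothelial cell cannot be told apart.

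Members of this family are also made as different proteins from 1 gene, and the isoforms of Flt1 and Vegfa shown here carried most counts of their genes in the mRNA table. The coding parts of Flt1-202 and Flt1-203 are equal over 1972 bases and 657 codons. Flt1-202 then continues into the next exon and encodes the membrane receptor of 1333 residues. Flt1-203 instead reads on into the intron and encodes a protein of 688 residues, the soluble receptor, which lacks the membrane anchor and the kinase. The sequences are shown because the soluble form is a trap for VEGF-A. They are given 5′ to 3′ on the minus strand of GRCm38 from GENCODE M21, with the last shared bases in lower case and the first 95 bases of each isoform's own coding part in capitals. These capitals lie at chr5:147634429-147634523 for Flt1-202 and chr5:147639130-147639224 for Flt1-203.
Flt1-202: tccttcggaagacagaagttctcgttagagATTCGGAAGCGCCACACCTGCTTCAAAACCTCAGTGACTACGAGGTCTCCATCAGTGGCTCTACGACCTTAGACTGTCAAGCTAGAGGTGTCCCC
Flt1-203: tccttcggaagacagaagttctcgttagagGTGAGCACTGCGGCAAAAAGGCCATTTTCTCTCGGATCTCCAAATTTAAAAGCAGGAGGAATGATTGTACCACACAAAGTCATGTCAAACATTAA

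The coding Vegfa isoforms with the most counts in the mRNA table differed by a stretch of 72 bases, or 24 codons, that Vegfa-207 has and Vegfa-202 lacks. The stretch is rich in lysine and arginine codons and is known to hold VEGF-A at heparan sulfate of the cell surface and matrix. It lies in an exon at chr17:46022277-46022348 on the minus strand and is shown in capitals, between the coding bases that both isoforms share.
Vegfa-207: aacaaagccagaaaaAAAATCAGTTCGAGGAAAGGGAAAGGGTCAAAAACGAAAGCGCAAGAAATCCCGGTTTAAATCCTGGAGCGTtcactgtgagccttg
Vegfa-202: aacaaagccagaaaatcactgtgagccttg

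Per transcript length, and summed over all transcripts of a gene, Vegfa had the highest level of the members in each of the 16 mice. Its level was 42.2 to 73.7 FPKM (fragments scaled to transcript length and library size), with a median of 53.2 FPKM. This sum includes transcripts annotated as retained introns, such as Vegfa-208 and Vegfa-209, with means of 11.3 and 10.8 FPKM over the 16 mice. The coding isoforms with the most counts in the mRNA table, Vegfa-207 and Vegfb-202, had means of 23.7 and 28.0 FPKM. The order of Vegfa and Vegfb thus holds for the sums and not for these isoforms. Vegfb followed at 23.0 to 40.9 FPKM and was above Cdh5 in 16 of 16 mice. Cdh5 at 16.4 to 31.8 FPKM and Pecam1 at 16.6 to 35.3 FPKM could not be put in order, since Cdh5 was the higher in 8 of 16 mice. The VEGF receptors were close to each other, with Flt1 at 12.2 to 21.1 FPKM and Kdr at 10.9 to 19.9 FPKM, and Flt1 was the higher in 13 of 16 mice. Tek was between 5.82 and 10.9 FPKM. Nos3 at 3.04 to 6.51 FPKM and Angpt1 at 2.83 to 6.25 FPKM had no clear order, since Nos3 was the higher in 7 of 16 mice. Angpt2 was the lowest member in every mouse, at 0.540 to 1.02 FPKM and 42 to 89 counts. The counts of the other 9 members ranged from 244 to 4109 per mouse, so Angpt2 was measured with the least precision.

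The piece of muscle differed between groups in ways beyond the members, and these values stand beside the results below. Skeletal muscle markers were abundant in every mouse, at a summed 18221 to 26194 FPKM over 8 genes. The extraction text of the labels speaks of another tissue, the retina, and the 6 of 8 retina markers in the table summed to at most 1.57 FPKM. Slow fibre markers summed to 24.5, 966, 430, and 743 FPKM in the control mice and to 24.8 to 98.4 FPKM in the HFD mice, and all 7 were lower in the HFD group at an unadjusted P under 0.05. Adipocyte markers summed to 494 to 2553 FPKM in the control group, 34.4 to 449 FPKM in the HFD group, 66.8 to 612 FPKM in the HFD + RSV group, and 22.9 to 2263 FPKM in the HFD + metformin group. Of these 7 adipocyte genes, 6 were lower in HFD than in control mice. Cidea passed the adjusted test of edgeR (log2FC of -6.30, adjusted P = 0.0474), as 2.43% of all genes did. This call was made in 12 of 26 alternatives and lost without any 1 of 12 mice, the exceptions being control replicate 1 and HFD + metformin replicates 2, 3, and 4. Schwann cell markers had 7 of 7 genes lower in the HFD group, with a median log2FC of -1.33, and erythroid markers had 6 of 6 genes lower, with a median of -0.62. Macrophage markers were lower for 8 of 9 genes, with a median of -0.24, fibroblast markers had a median of -0.08, and fast fibre markers had a median of 0.51. The part of these cell types in the members' differences was not tested. The mouse numbers in the labels also set the HFD group apart, since its 4 mice share a leading number whose meaning is not given. No mouse of the other groups carries this number, including the treated mice on the same diet. The number therefore cannot be separated from the group in any comparison with the HFD mice.

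The first comparison asked what the diet did. With the diet, Vegfa was higher and Pecam1, Cdh5, and Tek were lower, while Kdr and Vegfb had nearly equal means. None of these differences passed the test at an adjusted P under 0.05 (edgeR quasi-likelihood test with Benjamini-Hochberg adjustment over 15364 genes), and 0 of 10 members were called, where 2.43% of all genes were. At an unadjusted P under 0.05 there were 4 of 10 members, 1 higher and 3 lower, and 24.2% of all genes passed this weaker limit. The groups did not overlap for 3 members and for 18.3% of all genes. The median log2FC was 0.01 over the members and -0.02 over all genes tested. DESeq2 called 1 member, Pecam1, and limma on log2(FPKM + 0.1) called 0.

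The ligand Vegfa was measured at 74.4, 77.5, 73.5, and 72.2 CPM (counts scaled to library size) in the control mice. In the HFD mice it was at 88.5, 129.9, 100.5, and 86.4 CPM. In these CPM, which use the TMM factors, every HFD mouse was above every control mouse. The control mice were within a few CPM of each other while the HFD mice were not. In FPKM the groups overlapped, with HFD replicate 1 at 48.7 and control replicates 2 and 3 at 51.1 and 49.5. Without a scaling factor the unadjusted P of edgeR was 0.122. The smallest P that an exact two-sided permutation of 4 against 4 mice allows is 0.0286. The log2FC was 0.45 ± 0.16 (SE, n = 4 mice a group), a fold of 1.36 with a 95% interval from 1.08 to 1.72 (exact permutation P = 0.0286, edgeR adjusted P = 0.112). The highest HFD mouse was replicate 2. Across the alternatives the log2FC of Vegfa in this comparison stayed between 0.28 and 0.52, and its adjusted P between 0.0637 and 0.309.

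Pecam1, the endothelial adhesion molecule, was at 76.8, 94.9, 95.7, and 89.2 CPM in the control mice. The HFD mice had 62.1, 64.9, 65.9, and 61.0 CPM. All HFD mice were below all control mice, and they were close to each other. The log2FC was -0.49 ± 0.14 (SE), a fold of 0.712 with a 95% interval from 0.574 to 0.882 (exact permutation P = 0.0286, edgeR adjusted P = 0.0740). Pecam1 was the member nearest to the adjusted limit. It passed in the 12 mice without the metformin group (adjusted P = 0.00975), with DESeq2, in a fit to the 2 groups alone, and without replicate 3 or replicate 4 of the HFD + metformin group, and it did not pass in the other alternatives.

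Cdh5, the cadherin of endothelial junctions, was at 98.9, 116.5, 104.9, and 114.8 CPM in the control mice and at 83.3, 94.7, 81.5, and 70.7 CPM in the HFD mice. The groups did not overlap, although control replicate 1 and HFD replicate 2 were only a few CPM apart. The log2FC was -0.40 ± 0.15 (SE), a fold of 0.759 (exact permutation P = 0.0286, edgeR adjusted P = 0.123). In the 12 mice without the metformin group its adjusted P was 0.0391. Tek, the angiopoietin receptor, was at 34.4 to 46.3 CPM in the control group and at 28.6 to 34.8 CPM in the HFD group, and the highest HFD mouse overlapped the lowest control mouse. Its log2FC was -0.30 ± 0.11 (SE; exact permutation P = 0.0571, edgeR adjusted P = 0.128).

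None of the other 6 members passed the unadjusted limit. The growth factor Angpt1 was at 13.7 to 18.1 CPM in the control group and 15.2 to 27.4 CPM in the HFD group, with a log2FC of 0.37 ± 0.21 (SE; edgeR, adjusted P = 0.298). Its antagonist Angpt2 had a log2FC of 0.22 ± 0.20, with 2.18 to 3.43 CPM in the control group and 2.30 to 3.70 CPM in the HFD group. The VEGF receptors had log2FC of 0.04 for Kdr, with a 95% interval from -0.32 to 0.41, and -0.16 for Flt1, with an interval from -0.55 to 0.23. Vegfb had a log2FC of -0.01, with an interval from -0.37 to 0.35. Nos3 had 15.2 to 20.5 CPM in the control group and 19.6 to 24.7 CPM in the HFD group, with a log2FC of 0.24 ± 0.14 (SE; edgeR, adjusted P = 0.301). The interval of Flt1 includes the estimate of Cdh5, and that of Angpt1, from -0.08 to 0.83, includes the estimate of Vegfa.

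**Figure D1:**
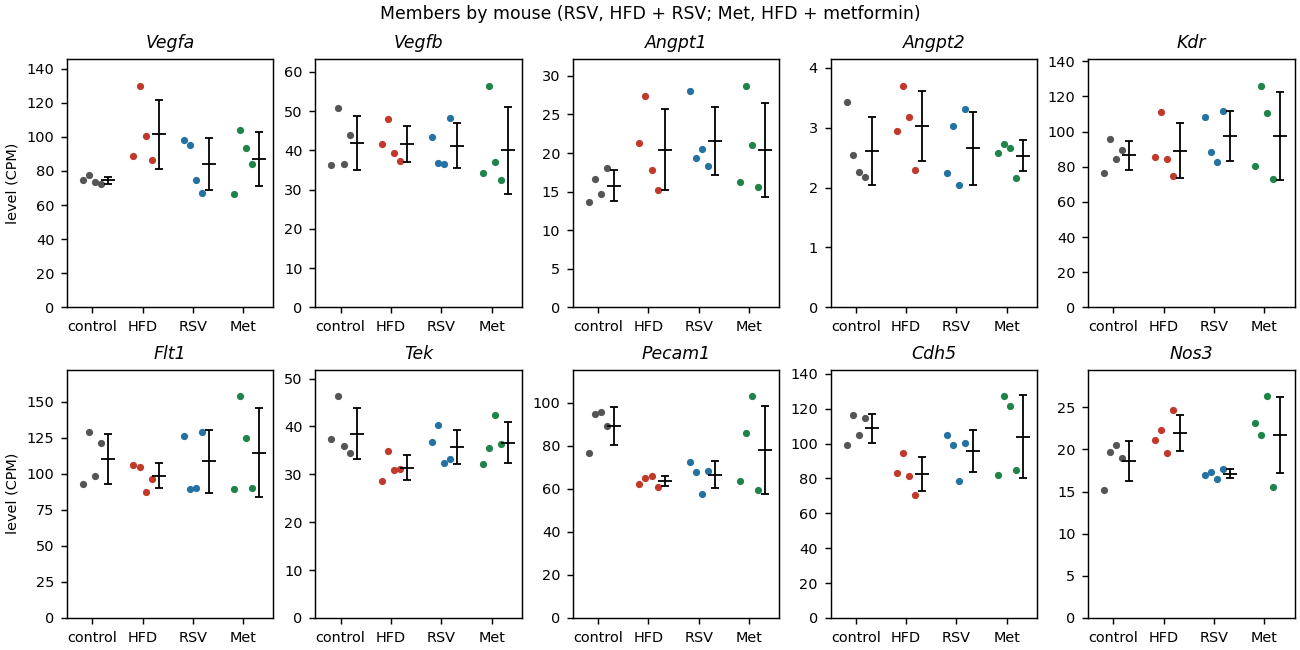
Each panel plots 1 member, with its level in CPM from 0 on the vertical axis and the 4 groups on the horizontal axis. Points are mice, and the bar beside them is the mean ± SD of 4 mice. Vegfa in the HFD group sits between 86.4 and 129.9 CPM, above all control mice at 72.2 to 77.5 CPM, and Pecam1 in the HFD group sits at 61.0 to 65.9 CPM, below all control mice.

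Values bearing on the makeup of the muscle pieces were read beside these members. Control replicate 1 had as few slow fibre transcripts as the HFD mice (24.5 FPKM), and its Pecam1 (76.8 CPM) and Cdh5 (98.9 CPM) were the lowest of the control group and above every HFD mouse. This is 1 library, and the part of the slow fibres was not tested. Without this mouse the log2FC of Pecam1 with the diet was -0.55 and that of Cdh5 was -0.44. Pericytes, which wrap capillaries, had markers at similar summed levels, 162 to 209 FPKM in the control group and 170 to 194 FPKM in the HFD group over 9 genes, with 4 higher and 5 lower. The TMM factors that scale the libraries also differed between the groups. Without them the median of all genes was moved by -0.16 on the log2 scale, and the log2FC of Vegfa became 0.28, that of Pecam1 -0.66, that of Cdh5 -0.57, and that of Kdr -0.13.

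The second comparison asked what RSV did in mice on the fat diet. Nos3 was lower in HFD + RSV mice than in HFD mice, and the other 9 members overlapped between the groups. For HFD + RSV against HFD, edgeR called 0 members and 0% of all genes at an adjusted P under 0.05, and DESeq2 and limma called 0 members. At an unadjusted P under 0.05 there was 1 of 10 members and 4.72% of all genes, and the groups did not overlap for 1 member and for 4.2% of all genes. Nos3 was at 21.2, 22.3, 19.6, and 24.7 CPM in the HFD mice and at 17.0, 17.3, 16.5, and 17.7 CPM in the HFD + RSV mice. All HFD + RSV mice were below all HFD mice and close to each other. The log2FC was -0.36 ± 0.14 (SE), a fold of 0.780 (exact permutation P = 0.0286, edgeR adjusted P = 0.999). The HFD + RSV mice lay inside the range of the control group (15.2 to 20.5 CPM). Without HFD replicate 4, the highest HFD mouse, the log2FC was -0.30 and missed the unadjusted limit, as it did without a scaling factor and with limma. Beside this, slow fibre markers were higher with RSV for 7 of 7 genes, 5 of them at an unadjusted P under 0.05, Schwann cell markers for 7 of 7 with 6, and erythroid markers for 6 of 6 with 4, and their part in the difference of Nos3 was not tested.

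Vegfa was at 98.2, 95.4, 74.8, and 67.3 CPM in the HFD + RSV mice, so that in CPM 2 mice were among the HFD values and the others were within or below the control values. The place of replicate 4 depended on the measure. In FPKM it was at 55.2, above the control mice at 42.2 to 51.1. With the counts of a lncRNA row in the Vegfa 3′ UTR added, described below, it was at 129.3 CPM, within the control values of 124.7 to 132.5 CPM. Its log2FC against the HFD group was -0.27 ± 0.16 (SE), and the 95% interval ran from -0.61 to 0.07. Pecam1 was at 72.3, 67.9, 57.8, and 68.3 CPM, near the HFD group, with a log2FC of 0.07 and an interval from -0.24 to 0.38. Against the control group, all 4 HFD + RSV mice were lower in Pecam1, with a log2FC of -0.42 ± 0.14 (SE; exact permutation P = 0.0286, edgeR adjusted P = 0.208). All 4 were higher in Angpt1, at 18.3 to 28.0 CPM against 13.7 to 18.1 CPM. Its log2FC was 0.45 ± 0.21 (SE; exact permutation P = 0.0286, edgeR adjusted P = 0.323). The share of all genes without overlap was not counted here. In that comparison 1 member, Pecam1, passed the unadjusted limit, where 15.8% of all genes did. At the adjusted limit edgeR called 0 members and 0.00651% of all genes. Cdh5 was at 78.3 to 105.1 CPM in the HFD + RSV group, with a log2FC of 0.21 against the HFD group and an interval from -0.10 to 0.53. The log2FC of the other members against the HFD group were 0.18 for Tek, 0.14 for Flt1, 0.13 for Kdr, 0.08 for Angpt1, -0.01 for Vegfb, and -0.19 for Angpt2.

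The third comparison asked the same of metformin. Cdh5, Pecam1, and Tek had higher means in HFD + metformin mice than in HFD mice, and the mice of the treated group were far apart. For HFD + metformin against HFD, edgeR called 0 members and 0.013% of all genes at an adjusted P under 0.05, and DESeq2 and limma called 0 members. At an unadjusted P under 0.05 there was 1 of 10 members, Cdh5, and 8.02% of all genes, and the groups overlapped for every member, while they did not for 3.72% of all genes. Cdh5 was at 81.8, 127.1, 121.4, and 84.9 CPM in the HFD + metformin mice. Replicates 2 and 3 were above every control mouse, and replicates 1 and 4 were within the range of the HFD mice. The log2FC was 0.33 ± 0.15 (SE; exact permutation P = 0.171, edgeR adjusted P = 0.618). It was 0.22 without replicate 2 and 0.25 without replicate 3, and in neither case did it pass the unadjusted limit. It also missed that limit without HFD replicate 1, 3, or 4 and in the fit to the 2 groups alone.

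Pecam1 showed the same split of mice, with 63.7, 86.0, 103.0, and 59.4 CPM. Its log2FC was 0.30 ± 0.14 (SE; exact permutation P = 0.343), and 0.14 without replicate 3. Kdr at 80.3, 126.1, 110.3, and 72.9 CPM and Flt1 at 89.6, 153.9, 125.0, and 90.4 CPM were also highest in replicates 2 and 3. Replicate 3 had 2263 FPKM of adipocyte and 2092 FPKM of erythroid markers, the highest erythroid sum of the 16 mice, while replicate 2 had the lowest adipocyte sum (22.9 FPKM) and 702 FPKM of erythroid markers. The erythroid markers as a list were higher in HFD + metformin than in HFD mice for 6 of 6 genes at an unadjusted P under 0.05, and their part in the members' values was not tested. Vegfa was at 66.5 to 104.0 CPM in the HFD + metformin group, with a log2FC of -0.22 and an interval from -0.56 to 0.12, and Nos3 had a log2FC of -0.02, with an interval from -0.31 to 0.27.

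Against the control group, the HFD + metformin group had 0 members called, as 0% of all genes were, and 0 members at an unadjusted P under 0.05, where 9.5% of all genes passed. The compounds, RSV and metformin, were compared over 6 weeks of treatment. The labels do not give the doses, and the study's methods give that of RSV but not that of metformin. Nos3 was lower in HFD + RSV mice than in HFD + metformin mice (23.2, 21.7, 26.3, and 15.6 CPM), with a log2FC of -0.34 ± 0.14 (SE; exact permutation P = 0.143, edgeR adjusted P = 0.962). The groups overlapped through metformin replicate 4, the lowest mouse of both. In this comparison edgeR called 0 members and 0% of all genes, and 1 member and 4.68% of all genes had an unadjusted P under 0.05. The intervals of the other 9 members included 0, for example from -0.54 to 0.08 for Pecam1. A test of any difference among the 4 groups called 0 members and 0.117% of all genes, and Pecam1 had the smallest adjusted P among the members (edgeR, adjusted P = 0.238).

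**Figure D2:**
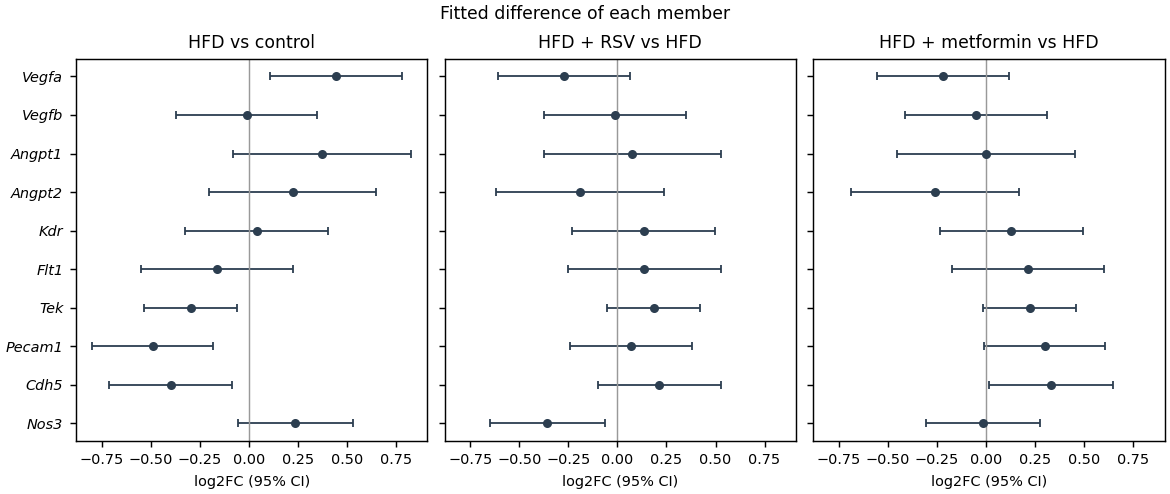
The 3 panels plot the log2FC of each member on the horizontal axis for HFD against control, HFD + RSV against HFD, and HFD + metformin against HFD. Points are edgeR estimates and bars are their 95% intervals. Vegfa at 0.45 and Pecam1 at -0.49 are the farthest from 0 with the diet, Nos3 at -0.36 with RSV, and Cdh5 at 0.33 with metformin. The last 2 comparisons share the HFD mice with the first, so their values are not independent of it.

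Ratios within a mouse do not depend on the scaling of libraries, and 4 of them were set up as log2 ratios of FPKM. The ligand to receptor ratio, Vegfa to Kdr, was 3.12 to 3.70 in the control group and 3.88 to 4.82 in the HFD group, so every HFD mouse was above every control mouse. The difference in log2 ratio was 0.44 (exact two-sided permutation P = 0.0286, and 0.114 after Benjamini-Hochberg adjustment over 12 tests). The ratio was 3.31 to 4.16 in the HFD + RSV group and 3.34 to 4.66 in the HFD + metformin group, both overlapping the HFD group. The FPKM sums of both genes include retained-intron transcripts. Of these, Vegfa-208 had a mean of 7.54 FPKM in the control group and 12.5 FPKM in the HFD group, and its part in the ratio was not tested. The ratio of Nos3 to Cdh5, a synthase and a structural protein of the same cells, was 0.146 to 0.184 in the control group and 0.222 to 0.326 in the HFD group. In the HFD + RSV group it was 0.156 to 0.199, below every HFD mouse. The HFD against control difference in log2 ratio was 0.63 and the HFD + RSV against HFD difference was -0.54 (exact two-sided permutation P = 0.0286 and adjusted P = 0.114 for each). These comparisons share the HFD mice, so the size of both moves with the same 4 values.

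The ratios of the paired receptors and of the opposed ligands overlapped between HFD and control mice. Flt1 to Kdr was 1.14 to 1.28 in the control group and 0.846 to 1.20 in the HFD group (log2 difference -0.22, exact permutation P = 0.114). Angpt2 to Angpt1 was 0.159 to 0.221 in HFD mice and 0.164 to 0.360 in control mice, of which replicate 1 stood apart (log2 difference -0.12, exact permutation P = 0.857). The difference of Angpt2 to Angpt1 was -0.35 for HFD + RSV against HFD (exact permutation P = 0.400) and -0.23 for HFD + metformin against HFD (exact permutation P = 0.171). None of the 12 ratio tests passed the adjusted limit, and the smallest adjusted P was 0.114.

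At the level of transcripts, 31 of the 44 member transcripts passed the filter, and edgeR called 0 of them in each main comparison. Among all transcripts, edgeR called 0.0157% with the diet, 0% for HFD + RSV against HFD, and 0.00449% for HFD + metformin against HFD. DESeq2 also called 0 member transcripts with the diet. At an unadjusted P under 0.05 there were 5 of the 31 tested member transcripts with the diet, where 13.1% of all transcripts passed. Lower with the diet were Cdh5-201, Tek-201, Pecam1-204, and the retained intron Pecam1-208, and higher was the retained intron Vegfa-208. The split of a gene's reads over its isoforms is an estimate, and for some isoforms it differed widely between mice. Pecam1-207, for example, had 207 to 306 counts in the control mice but 0 in 3 of the 12 other mice.

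The soluble and membrane forms of Flt1 were about equally counted in the mRNA table. The shares and the ratio below leave out a row of the lncRNA table inside the 3′ UTR of Flt1-202, with 66 to 664 counts. They therefore depend on how reads of the membrane form were split between the tables. That row was lowest in HFD replicate 4. Flt1-203, the soluble form shown above, took 46.8% to 56.8% of the gene's counts in the control group and 38.1% to 50.7% in the HFD group. Flt1-202 took 39.5% to 49.4% and 45.3% to 59.5%. The groups overlapped for both. The FPKM ratio of Flt1-203 to Flt1-202 had a log2 difference of -0.40 with the diet (exact permutation P = 0.143), a test added after the data were seen. The differences were 0.33 for the HFD + RSV group and 0.30 for the HFD + metformin group against the HFD group (exact permutation P = 0.314 and 0.229).

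Among the Vegfa isoforms, the matrix-binding Vegfa-207 was assigned 56.3% to 67.7% of the gene's counts in the mRNA table in 15 mice and 31.1% in HFD + RSV replicate 4. Vegfa-202, without the stretch in capitals above, was assigned 11.9% to 21.6%. The Vegfa shares leave out a row of the lncRNA table inside the last exon of Vegfa-201 and Vegfa-202, described below. In control replicate 1 that row held 1032 counts and Vegfa-207 held 883. The shares therefore depend on how reads were split between the tables. The log2FC of Vegfa-207 and of Vegfa-202 with the diet was 0.45 (edgeR, adjusted P = 0.492 and 0.517), the value of the whole gene. Vegfa-211, which lacks a further 44 codons and encodes a freely diffusing form, was assigned 4 to 6 counts per mouse. Vegfa-201, another coding isoform with 6 exons like Vegfa-211, was assigned 14 to 59 counts, or 0.864% to 3.92%. The counts of Vegfa-211 alone therefore do not give the level of the diffusing form. Vegfb-202 took 88.1% to 93.7% of the Vegfb counts and Vegfb-201 took 5.72% to 11.0%. Pecam1 was spread over several isoforms, with Pecam1-202 at 29.8% to 51.5%, Pecam1-204 at 7.76% to 42.0%, and Pecam1-203 at 13.6% to 34.4% of its counts. With the diet the estimated log2FC was -0.19 for Pecam1-202, -1.13 for Pecam1-204, and 0.04 for Pecam1-203 (edgeR, adjusted P = 0.784, 0.285, and 0.979). None of them was called, and a difference between the isoforms was not tested. Cdh5, Kdr, Tek, Angpt1, and Nos3 were mostly 1 isoform, with Cdh5-201 at 99.5% to 99.9%, Kdr-201 at 84.2% to 94.7%, Tek-201 at 90.2% to 96.2%, Angpt1-201 at 93.1% to 98.2%, and Nos3-201 at 80.3% to 97.0% of their genes' counts.

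**Figure D3:**
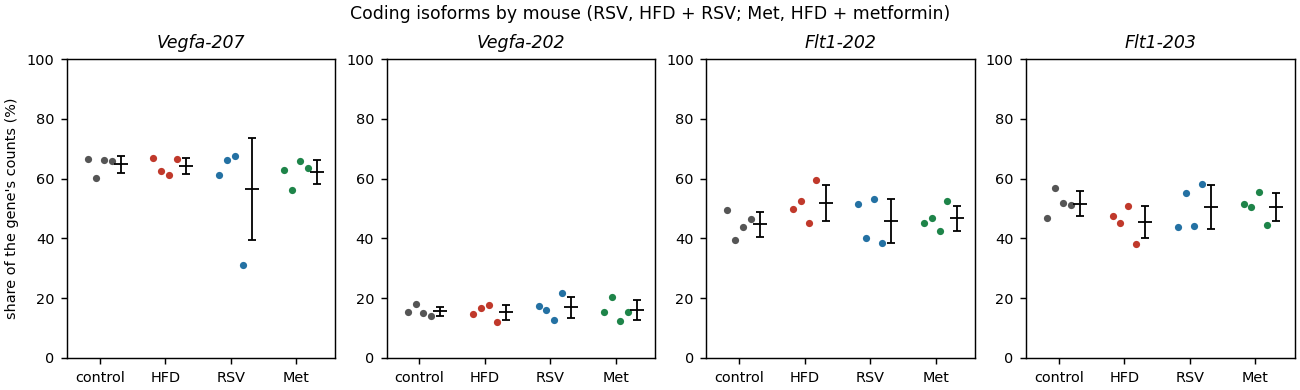
The vertical axis gives the share of a gene's counts in the mRNA table assigned to Vegfa-207, Vegfa-202, Flt1-202, and Flt1-203, from 0% to 100%, in the 4 groups. Points are mice and bars are the mean ± SD of 4 mice. The point of Vegfa-207 at 31.1% is HFD + RSV replicate 4, and the Flt1 isoforms share the gene's counts in this table about equally, with overlapping groups.

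The end of Vegfa was counted in another table. The lncRNA table holds a row, NONMMUT029805.2, at chr17:46016997-46018672, which lies wholly inside the last exon and the 3′ UTR of Vegfa-201 and Vegfa-202. It held 803 to 1993 counts, or 38.2% to 48.0% of the sum of Vegfa and this row. In the HFD group it was at 423, 581, 422, and 445 CPM of the lncRNA table and in the control group at 379, 352, 339, and 358 CPM. All HFD mice were again above all control mice, with a log2FC of 0.39 ± 0.14 (SE; edgeR, adjusted P = 0.173). With its counts added to Vegfa, an alternative chosen after the data were seen, the log2FC of Vegfa was 0.38 (edgeR, adjusted P = 0.138). A like row, NONMMUT055326.2, lies inside the 3′ UTR of Flt1-202 at chr5:147561606-147563275 and held 66 to 664 counts, with HFD replicate 4 (66 counts) and HFD + RSV replicate 1 (72 counts) far below the other mice. With it the log2FC of Flt1 with the diet was -0.18.

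The relation of the members to each other from mouse to mouse was read within groups. After subtraction of the group means, 43 of the 45 pairs had a positive Pearson r in log2 CPM over the 16 mice, with a median of 0.49, and 15 pairs passed an adjusted P under 0.05 (100000 permutations within groups, Benjamini-Hochberg adjustment over 45 pairs). By Spearman's rho 13 pairs passed. The points of each pair share their libraries and scaling factors. The share of other gene pairs that would pass was not counted, so the 15 pairs are not shown to be particular to the members. Akap8 and Pnrc2, genes in none of the lists used here, had r of 0.91 and 0.85 with Cdh5 within groups. The receptor Kdr and the junction protein Cdh5 had the highest value (r = 0.93, permutation P = 4e-05, adjusted P = 0.00090; rho = 0.94, permutation P = 5e-05, adjusted P = 0.00113), and r was 0.91 without the 2 mice farthest from the median of Kdr. Pecam1 and Cdh5 followed each other as well (r = 0.85, permutation P = 0.00468, adjusted P = 0.0248; rho = 0.81, permutation P = 0.0114, adjusted P = 0.0427; r = 0.85 without the 2 farthest mice).

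Pairs of a VEGF ligand and another member were among those that passed. Vegfb and its receptor Flt1 had r = 0.89 (permutation P = 0.00025, adjusted P = 0.00375; rho = 0.89, permutation P = 0.00039, adjusted P = 0.00585; r = 0.85 without the 2 farthest mice). Vegfb and Kdr had r = 0.87 (permutation P = 1e-05, the smallest that these permutations can give, and adjusted P = 0.00045; rho = 0.84, permutation P = 1e-05, adjusted P = 0.00045; r = 0.85 without the 2 farthest mice). Vegfa had r = 0.70 with Cdh5 within groups (permutation P = 0.0160, adjusted P = 0.0481; rho = 0.72, permutation P = 0.0134, adjusted P = 0.0465; r = 0.59 without the 2 farthest mice). Between the control and HFD groups the means of Vegfa and Cdh5 went in opposite directions, and without subtraction of group means their r was 0.09. Nos3 and Angpt2 passed with no other member. The highest r of Nos3 was 0.68 with Pecam1 (rho = 0.41, permutation P = 0.0569 for r and 0.205 for rho, adjusted P = 0.160 and 0.348), and it was 0.27 without the 2 farthest mice, so that this relation rested on those mice.

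**Figure D4:**
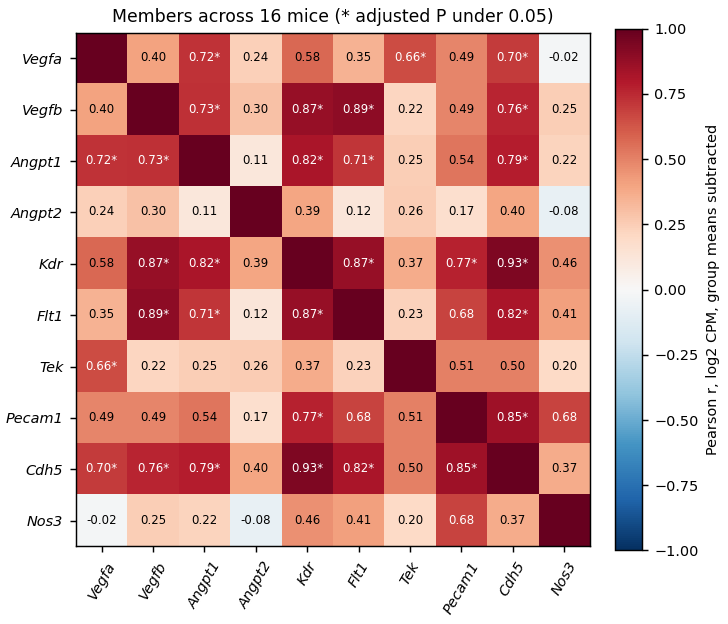
Rows and columns are the 10 members, and each cell gives Pearson's r of a pair in log2 CPM over 16 mice after subtraction of group means, from -1 (blue) to 1 (red). Stars mark the 15 pairs with an adjusted P under 0.05. Kdr, Flt1, Cdh5, Vegfb, and Angpt1 form a block of high values, from 0.71 to 0.93, and the rows of Nos3 and Angpt2 hold no star.

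Over the 16 mice without subtraction of group means, the genes most like Cdh5 in log2 CPM were Bmp6 (r = 0.93), Pnrc2 (0.89), Tjp1 (0.87), Pecam1 (0.87), Icam2 (0.86), Epas1 (0.86), Tmem44 (0.86), and Akap8 (0.86). Pecam1 thus had rank 4 of the 15009 genes with a count in every mouse. Flt1 had rank 71 and Kdr rank 262 in likeness to Cdh5. Among the genes most like Vegfa were Pet117 (r = 0.77), Kctd16 (0.77), Trib2 (0.75), Pcsk1 (0.74), Pfkfb2 (0.73), Naa35 (0.73), and Spata1 (0.73), and no member was among them. Angpt1 was the member most like Vegfa (r = 0.69, rank 20).

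Other genes of the endothelium and of vessel growth were read from fixed lists. Of 25 other endothelial markers, all tested, 16 were lower and 9 higher in HFD than in control mice, with a median log2FC of -0.12 against -0.02 over all genes, and 0 were called. At an unadjusted P under 0.05, 6 were lower and 2 higher, where 24.2% of all genes passed. Their summed level was 216 to 296 FPKM in the control group and 196 to 235 FPKM in the HFD group, which overlap. Against the HFD group, 23 of the 25 were higher in the HFD + metformin group, 9 at an unadjusted P under 0.05 (8.02% of all genes), with a median log2FC of 0.21 and 0 called. The markers come from the same mice and are not independent of each other. Their summed level in the HFD + metformin group was 214 to 335 FPKM, highest in replicate 3, and overlapped the HFD group. In the HFD + RSV group the median was 0.03, with 14 higher and 11 lower. None of the listed genes of any kind was called for either treatment against HFD.

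Among 10 other genes of the VEGF and angiopoietin families, Vegfd was the one called with the diet, where 2.43% of all genes were called. Vegfd, a ligand of the lymphatic receptor VEGFR3, was at 7.81, 9.94, 7.86, and 8.01 CPM in the control mice and at 3.98, 4.78, 4.69, and 5.01 CPM in the HFD mice, without overlap. It fell by 0.87 on the log2 scale (SE 0.20; edgeR, adjusted P = 0.0427). The call was made in 14 of 26 alternatives and was lost without any 1 of the 4 HFD mice or of control replicates 2, 3, and 4, and without HFD + RSV replicate 3 or 4 (adjusted P from 0.00343 to 0.125 over all alternatives, log2FC from -1.02 to -0.77). In the HFD + metformin group Vegfd was at 5.46 to 10.1 CPM (log2FC of 0.75 against the HFD group; edgeR, adjusted P = 0.519), and in the HFD + RSV group at 4.74 to 7.50 CPM. Of the 8 lymphatic endothelial genes, 7 were lower in HFD than in control mice, with a median log2FC of -0.44 and 0 called.

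Among the 12 arterial and Notch genes, Jag2 and Bmx were called with the diet, where 2.43% of all genes were. In this list 9 of 12 were lower, with a median log2FC of -0.35 against -0.02 over all genes. Jag2, a Notch ligand, rose from 22.5 to 34.9 CPM in control mice to 43.6 to 50.5 CPM in HFD mice (log2FC of 0.70, adjusted P = 0.0262). Bmx, a tyrosine kinase of arterial endothelium, fell by 1.85 on the log2 scale (edgeR, adjusted P = 0.0465), from 0.618 to 2.35 CPM in control mice to 0.230 to 0.519 CPM in HFD mice. In the tip cell list, Plxnd1, the semaphorin receptor that guides vessel sprouts, rose from 58.1 to 63.4 CPM in control mice to 92.9 to 98.1 CPM in HFD mice (log2FC of 0.62, edgeR, adjusted P = 0.00570), and 5 of 10 genes of that list were higher and 5 lower. Over 26 alternatives Plxnd1 was called in 25, all but limma (adjusted P = 0.0566), Jag2 in 19, and Bmx in 10. The calls of Jag2 and Bmx were lost without any 1 of the 4 HFD mice or of control replicates 2 and 3, with adjusted P up to 0.0839 for Jag2 and 0.144 for Bmx. That of Bmx was also lost without control replicate 4, HFD + metformin replicate 1 or 2, or any 1 of the HFD + RSV mice. Plxnd1 was at 78.3 to 86.6 CPM in the HFD + RSV group, below every HFD mouse and above every control mouse (log2FC of -0.22 against the HFD group, edgeR, adjusted P = 0.999).

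The regulators of Vegfa showed no common direction. Of 13 hypoxia-sensing and VEGF regulator genes, 6 were higher and 7 lower in HFD than in control mice, with 0 called and a median log2FC of -0.05. Of 13 hypoxia-inducible targets, 3 were higher and 10 lower, with a median of -0.18. In that list P4ha1 and Bnip3 were called, where 2.43% of all genes were. P4ha1, a collagen prolyl hydroxylase, rose by 0.79 (adjusted P = 0.0465), and Bnip3, a mitophagy receptor, fell by 0.67 (adjusted P = 0.0342) on the log2 scale in edgeR. Of 26 alternatives, 11 called P4ha1 and 19 called Bnip3, and both calls were lost without any 1 of the 4 HFD mice or of control replicates 2, 3, and 4 (adjusted P up to 0.136 and 0.107). That of P4ha1 was also lost without HFD + metformin replicate 1 or 2 or HFD + RSV replicate 1, 2, or 4. Angiogenesis inhibitors had 6 higher and 6 lower of 12 genes, with a median of -0.01 and 0 called. The nitric oxide pathway around Nos3 had 6 higher and 11 lower of 17 tested genes, with a median of -0.09 and 0 called.

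Genes that carry fatty acids across the muscle capillary had the lowest median of the vascular lists with the diet, at a log2FC of -0.63, with 9 of 10 lower, 6 of them at an unadjusted P under 0.05 (24.2% of all genes), and 0 called. Fat cells express several of these genes too, and the part of the adipocyte markers in this list was not tested. In the HFD + metformin group this list had a median log2FC of 0.47 against HFD mice, with 1 of 10 genes at an unadjusted P under 0.05 (8.02% of all genes). Its summed level was 565 to 2950 FPKM in that group and 488 to 896 FPKM in the HFD group, which overlap. With RSV the median log2FC was 0.11. The venous list had a median of -0.11 and 0 genes called with the diet, and the vascular smooth muscle list had a median of -0.39 and 0 called. Col15a1, a basement membrane collagen in the fibroblast list, rose from 31.5 to 37.0 CPM in control mice to 55.7 to 81.8 CPM in HFD mice (log2FC of 1.02, edgeR, adjusted P = 0.0207). It was called with the diet, as 2.43% of all genes were. Of 26 alternatives 21 called it, all but those without control replicate 2 or 3 or HFD replicate 1, 2, or 3 (adjusted P up to 0.0745).

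**Figure D5:**
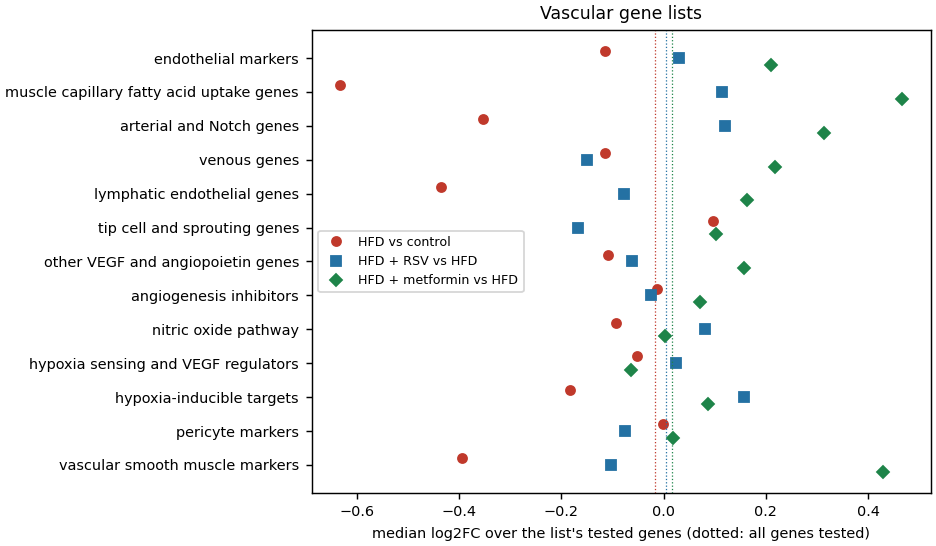
Each row is a vascular gene list and the horizontal axis is the median log2FC over its tested genes. Circles are HFD against control, squares HFD + RSV against HFD, and diamonds HFD + metformin against HFD, with dotted lines at the median of all genes tested. The circle of the capillary fatty acid uptake genes is at -0.63, and the diamonds of 12 of the 13 lists are at or above 0.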

How the data were processed

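RNA of 16 mouse skeletal muscles was sequenced after removal of ribosomal RNA, in paired-end libraries on an Illumina NovaSeq. The submitters' processing notes name fastp, HISAT2, and GRCm38, and the study's methods name StringTie for counting and TMM for normalization. The authors deposited expected counts and FPKM values per transcript and mouse, in 1 table of mRNAs and 1 of lncRNAs. The expected counts the authors deposited were whole numbers without normalization. The annotation is not given in the sources used here, and 97.4% of the mRNA rows have the position of their transcript in GENCODE M21.

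Groups came from the labels. Counts were summed per gene name, so reads that StringTie split over isoforms were joined, and 4 transcripts printed over 2 lines were joined. Genes were filtered with filterByExpr (minimum count 10, minimum total count 15), scaled by TMM, and tested with the robust quasi-likelihood test of edgeR 4.0.16 in R 4.3.3, in 1 fit of all 16 mice, with Benjamini-Hochberg adjustment over 15364 genes. A gene was called at an adjusted P under 0.05. Standard errors are the absolute log2FC divided by the square root of the F statistic, and intervals are 95% intervals. Ratios used summed FPKM within a mouse. P-values measure the spread between mice.

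The members and gene lists were chosen with earlier results of these data known. Besides the members, the text names up to 4 called genes with the largest changes in each list and the 8 genes most like Cdh5 and Vegfa over 16 mice. One gene that this rule selects is not reported here. Alternatives were RLE factors, no scaling factor, library totals of both tables, no filter, DESeq2 1.42.0, estimation that is not robust, limma 3.58.1 on log2(FPKM + 0.1), fewer mice, and other limits.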

Additional observations from a re-analysis of the deposited data

Results flagged for a closer look

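In groups of 4 mice, 3 of 56 sets of member levels and ratios held a mouse far from the others by Dixon's criterion, and chance flags about 1 in 20 such sets. The ratio of Angpt2 to Angpt1 in the control group had a gap of 0.832 of its range, from control replicate 1 at 0.360 to the other control mice at 0.164, 0.187, and 0.170. The ratio of Vegfa to Kdr in the HFD + metformin group had a gap of 0.875 of its range, with replicate 4 at 4.66 and the other mice at 3.34, 3.46, and 3.48. The ratio of Nos3 to Cdh5 in the HFD group had a gap of 0.844 of its range, with replicate 4 at 0.326 and the other mice at 0.235, 0.222, and 0.229. No level of a single member was set apart in this way.

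The lncRNA table holds 20 rows in the spans of members. The rows below were picked from them because every HFD mouse was above every control mouse in CPM. The share of all lncRNA rows without overlap was not counted. The row inside the 3′ UTR of Vegfa, NONMMUT029805.2, had a log2FC of 0.39. A row within the span of Angpt2, NONMMUT064774.2, had 11 to 13 counts in the control mice and 15 to 23 in the HFD mice, with a log2FC of 0.73 (edgeR, adjusted P = 0.120). ENSMUST00000180585, which starts inside the span of Angpt1 and extends beyond it, had 2 to 14 counts in the control mice and 9 to 22 in the HFD mice, which overlap. After scaling it was at 0.735 to 2.89 CPM and 3.12 to 6.41 CPM, with a log2FC of 1.24 (edgeR, adjusted P = 0.177). The rows at Angpt2 and Angpt1 hold few counts, and no cause was tested.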

How the results depend on the processing

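The count of members called with the diet was 0 and became 1 with DESeq2, 1 in the fit to the 2 groups alone, and 2 in the 12 mice without metformin. With 1 mouse left out it was 0 to 1. At an unadjusted P it was 4 with the diet, 1 for HFD + RSV against HFD, 1 for HFD + metformin against HFD, 1 for HFD + RSV against control, and 1 for HFD + RSV against HFD + metformin. Genes called with the diet were 374 in edgeR, 186 without a scaling factor, 158 without a filter, 1543 with DESeq2, 197 with limma, and 759 at an unadjusted P with an absolute log2FC above 1, and 16 (without control replicate 2) to 1588 (without HFD + metformin replicate 3) with 1 mouse left out. For HFD + RSV against HFD they were 0 in edgeR, 7 with DESeq2, 166 at the unadjusted limit with log2FC, and 0 to 1 with 1 mouse left out. For HFD + metformin against HFD they were 2 in edgeR, 1 without a scaling factor, 32 with DESeq2, 0 with limma, 271 at the unadjusted limit with log2FC, and 0 to 2 with 1 mouse left out. The cause of these changes was not tested. The 8 listed genes called with the diet kept their direction in every alternative run. Of 770 alternative values of the members' log2FC, 32 changed sign, in 8 of the 30 results, all of them uncalled. The unadjusted P of Cdh5 with metformin passed 0.05 in 19 of 25 alternatives, and not without replicate 2 or 3 of that group, without HFD replicate 1, 3, or 4, or in the fit to the 2 groups alone. That of Nos3 with RSV passed in 23 of 26, and not without a scaling factor, with limma, or without HFD replicate 4. No ratio or member transcript was called under any alternative run, and 10 pairs of members correlated without subtraction of group means, against 15 with it. No paired analysis was possible because nothing in the titles ties a mouse of one group to a mouse of another. Depth limits Angpt2 most, at 42 to 89 counts.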
